A study of Mus musculus with 6 samples.

Results

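The core circadian clock genes *Per1*, *Per2*, *Per3*, *Cry1*, *Cry2*, *Arntl*, *Clock* and *Npas2* were followed in differentiated MC3T3-E1 osteoblasts after corticosterone. They were taken by gene symbol, and all 8 were found among the 24016 mouse genes of the RNA-seq table. MC3T3-E1 is a wild-type preosteoblast line from mouse calvaria that lays down bone-like matrix when differentiated, and a subclone of it was used. The cells were differentiated for 6 days, with β-glycerophosphate at 10 mM and ascorbic acid at 50 μg/ml, and then kept for 24 h with vehicle or with corticosterone, the chief glucocorticoid of mice, at 100 nM. According to the sample labels, 10 nM calcitriol was present as well, and the protocol text is the same for both groups. RNA of 3 vehicle cultures and 3 corticosterone cultures was sequenced. The cultures came from 1 cell line and were sampled at 1 time, and neither the labels nor the methods describe a synchronization of the cells. The level of a rhythmic gene and the phase of its rhythm therefore cannot be told apart here.

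The clock is a transcriptional feedback loop. The activators ARNTL (also named BMAL1) and CLOCK, or its paralog NPAS2, bind as a pair to E-box elements and switch on the period and cryptochrome genes, whose products return to the nucleus and repress that pair. A second loop acts through nuclear receptors on *Arntl*, where REV-ERB proteins repress and ROR proteins activate, and D-box elements are bound by DBP, TEF and HLF as activators and by NFIL3 as a repressor. Most cell types run this clock, osteoblasts among them, and glucocorticoids are known to act on *Per1* and *Per2* through the glucocorticoid receptor and to reset clocks of peripheral tissues and cultured cells.

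Promoter sequences are shown for *Per1*, *Per3* and *Cry1*, which differed most clearly in their response or share an element, and a short stretch is shown for *Arntl*. They are RefSeq sequences of GRCm38.p6, the 250 bases before an annotated transcription start, written 5′ to 3′ on the strand of the gene. Capitals mark an E-box (CACGTG), a D-box (TTANGTAA, whose reverse complement is TTACNTAA) or the core of a cAMP response element (TGACGT, or ACGTCA on the other strand).
*Per1*, first start, chr11:69098699-69098948, plus strand: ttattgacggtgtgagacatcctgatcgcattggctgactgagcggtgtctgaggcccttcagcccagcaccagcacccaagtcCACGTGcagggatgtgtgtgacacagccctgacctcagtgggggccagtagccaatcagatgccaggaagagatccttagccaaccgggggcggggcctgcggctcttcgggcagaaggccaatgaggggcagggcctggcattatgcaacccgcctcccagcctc
*Per1*, second start, chr11:69099902-69100151, plus strand: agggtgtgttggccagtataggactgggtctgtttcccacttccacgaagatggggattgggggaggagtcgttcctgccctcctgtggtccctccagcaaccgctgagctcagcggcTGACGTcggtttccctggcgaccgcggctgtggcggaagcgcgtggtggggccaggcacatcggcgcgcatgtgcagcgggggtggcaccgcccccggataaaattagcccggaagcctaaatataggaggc
*Per3*, chr4:151044666-151044915, minus strand: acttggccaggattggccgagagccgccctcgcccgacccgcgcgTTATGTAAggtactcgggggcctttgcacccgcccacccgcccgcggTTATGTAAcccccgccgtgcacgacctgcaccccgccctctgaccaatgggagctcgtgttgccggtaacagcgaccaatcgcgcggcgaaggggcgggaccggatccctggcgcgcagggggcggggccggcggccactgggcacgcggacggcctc
*Cry1*, chr10:85185055-85185304, minus strand: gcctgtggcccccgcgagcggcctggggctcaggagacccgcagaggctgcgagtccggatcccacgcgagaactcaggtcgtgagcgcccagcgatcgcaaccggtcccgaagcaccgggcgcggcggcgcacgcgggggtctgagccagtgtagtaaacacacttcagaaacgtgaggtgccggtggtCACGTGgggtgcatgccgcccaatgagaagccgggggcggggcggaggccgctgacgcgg
*Arntl*, chr7:113207531-113207555, plus strand, with a ROR element (AGTAGGTCA) in capitals: aggcagaaAGTAGGTCAgggacgga

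Of the 8 genes, 7 had at least 1 promoter window in the sequence table, 11 windows in all, and *Per2* was not matched. Each window was searched over 300 bases, from 250 before the start to 50 after it, on both strands. An E-box lay at position -166 of the first *Per1* start and at -60 of *Cry1*, counted to the first base of the motif. This *Per1* start is the first with a window, and at 69098949 it lies inside the annotated gene, which begins at 69095217. Over all 32851 promoter windows of the table, 7.15% held an E-box. The 2 D-boxes of *Per3* began at -205 and -158, and 2.32% of all windows held this motif. The cAMP element core of the second *Per1* window, at -132, is found in 7.51% of all windows. The ROR element of *Arntl*, which began 29 bases into the transcript of its second start, is found in 0.192% of them. The glucocorticoid half-site AGAACA, searched on either strand and present in 19.0% of all windows, had 0 matches in the 11 windows. Its palindrome GNACANNNTGTNC, present in 0.475%, had 0 matches too. The windows are not all separate, since those of *Arntl* overlap each other, as do the first and the second of *Clock*. The first bases after the *Cry2* start occurred in no annotated transcript of that gene. These letters are a description of the windows, and sites farther from the start were not searched.

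The table gives normalized counts, which are reads per gene divided by 1 size factor per library. Reads on genes numbered 19076586 to 25638645 in the vehicle libraries and 16020401 to 18992332 in the corticosterone libraries, so that the treated libraries were the shallower ones. A gene with 3 reads, taken as the floor, has a normalized count of 2.32 to 3.84. Libraries of the same treatment were not duplicates, since their counts differed by a chi-square per degree of freedom of at least 3.38. Of 13 osteoblast markers, 12 had a mean of at least 100, among them *Col1a1*, *Col1a2*, *Runx2* and *Sp7*, while *Phex* stayed at 3.80 with vehicle and 6.66 with corticosterone. With limma, 10 of these markers were lower after corticosterone and *Spp1* was higher. *Runx2*, *Sp7*, *Ibsp*, *Bglap*, *Bglap2* and *Pth1r* were called lower, with log2 fold changes of -1.16, -1.34, -1.20, -1.87, -1.82 and -1.30. Summed markers of other cell types ranged from 7.72 to 21.1 with vehicle and from 108 to 133 with corticosterone for adipocytes (2 of 6 genes in the table). The corresponding ranges were 1308 to 1600 and 871 to 1025 for chondrocytes (4 of 6), 15.4 to 23.9 and 21.4 to 23.0 for myoblasts (2 of 6), 1848 to 2008 and 1456 to 1521 for haematopoietic cells (4 of 6) and 22.8 to 47.8 and 39.8 to 53.7 for endothelial cells (4 of 6). *Fabp4*, called higher with a log2 fold change of 3.14, made up nearly all of the adipocyte sum, *Col2a1* most of the chondrocyte sum and *Ctsk* most of the haematopoietic sum. *Plin1* was at 0 in 5 of the 6 libraries and had 2 reads in the third corticosterone library. Of the chondrocyte markers, *Col2a1* fell (log2 fold change of -0.80) and *Col10a1* rose (0.73, limma adjusted p = 0.0073). The part of these shifts in the clock gene results was not tested.

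Groups were compared with limma on log2(normalized count + 0.1) over all 24016 genes, with Benjamini-Hochberg adjustment. A gene passed the test at an adjusted p under 0.05, and was called where its absolute log2 fold change also exceeded 1. The period genes moved most and in opposite directions. *Per1* and *Per2* rose and *Per3* fell, *Arntl* rose slightly, *Cry1*, *Cry2* and *Clock* did not pass the test, and *Npas2* was at or under the floor in every library. Thus 4 of the 8 genes passed, against 16.7% of all genes tested. The 7 expressed members all had a mean of at least 100, and among the genes at that level 32.6% passed. In 4 of the 8 genes the treated and vehicle libraries did not overlap at all. This was so for 29.6% of all genes and 49.0% of those with a mean of at least 100, so the share of separated members is close to that of other expressed genes. *Per1* and *Per2* were called higher, where 1.38% of all genes were. None was called lower, where 1.40% of all genes were. That count of 0 was also obtained with DESeq2, with edgeR over the 7 members that passed its filter, and with limma at an unadjusted p under 0.05 together with the same fold. It was 1 with scaling to the same total and in some fits with a single library left out, since *Per3* (-0.97) lay close to the required fold. The median log2 fold change was 0.07 over the 7 expressed members and -0.01 over all genes. These are bulk cultures, in which fewer cells expressing a gene and less RNA per cell cannot be told apart.

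**Figure D1:**
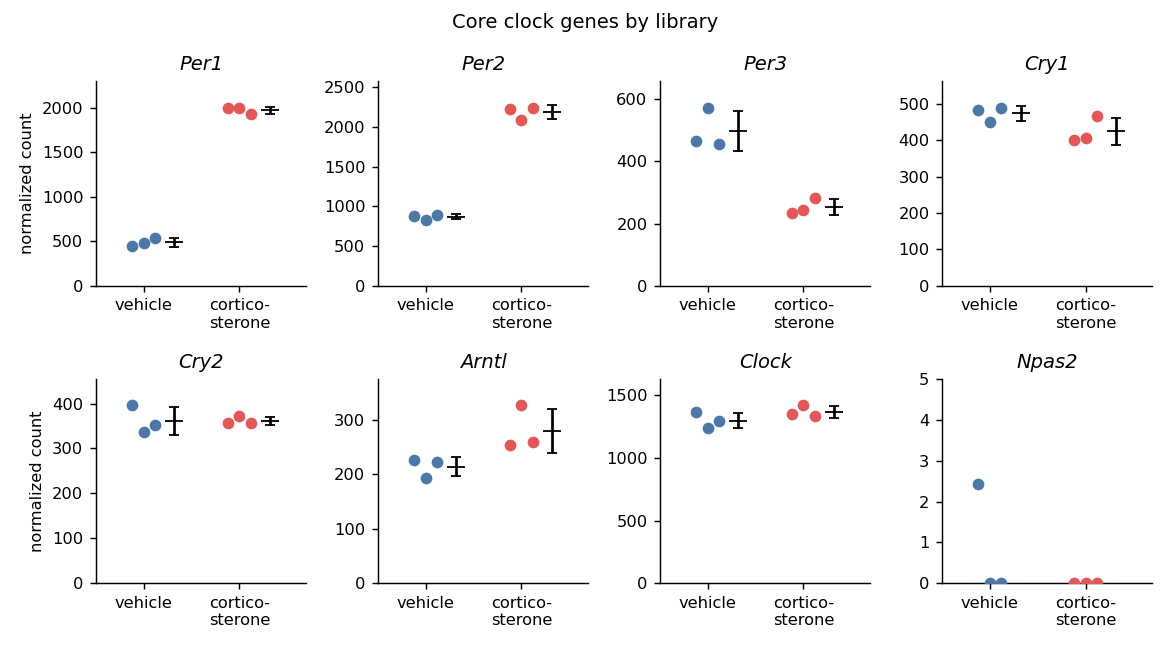
Normalized counts of the 8 clock genes (vertical axes, each from 0) in the 3 vehicle and 3 corticosterone libraries (points), with the mean and SD of each group as bars beside the points; *Npas2* has no bar. *Per1* and *Per2* sit higher and *Per3* lower in all corticosterone libraries, while *Cry1*, *Cry2* and *Clock* overlap between the groups.

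*Per1* (ENSMUSG00000020893, chromosome 11, 69095217 to 69109960 of GRCm38, plus strand) encodes a repressor of the loop. Its normalized counts were 445, 477 and 541 with vehicle, against 1990.3, 1998 and 1927 with corticosterone. The lowest treated library was thus far above the highest vehicle library, and the treated libraries were close to each other. The mean rose from 488 ± 48.8 to 1972 ± 39.2 (SD, n = 3 each). In limma this was 2.02 ± 0.07 on the log2 scale (fold change ± SE, adjusted p = 3.8e-12). This is a 4.05-fold rise, with a 95% interval of 3.68 to 4.47. Between 523 and 1859 reads stood behind each value. Of the 10558 genes with a mean of at least 100, only 23 had a higher log2 fold change.

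*Per2* (ENSMUSG00000055866, chromosome 1, 91415982 to 91459324, minus strand) encodes the second repressor of this kind. It had 879.8, 830.5 and 889 with vehicle, against 2230.2, 2085 and 2240.05 with corticosterone. The groups did not overlap, and the spread within each was small. The mean rose from 866 ± 31.3 to 2185 ± 86.7 (SD, n = 3 each). In limma this was 1.33 ± 0.05 on the log2 scale (fold change ± SE, adjusted p = 2.5e-11). The rise was 2.52-fold, with a 95% interval of 2.34 to 2.72, and 73 of the 10558 genes lay above it.

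*Per3* (ENSMUSG00000028957, chromosome 4, 151003652 to 151044665, minus strand) is the third period gene, whose product is regarded as less essential for rhythms than those of *Per1* and *Per2*. It had 465, 573 and 457 with vehicle, against 234, 245 and 283 with corticosterone. Every treated library was lower, with the second vehicle library the highest of all. The mean fell from 498 ± 64.4 to 254 ± 25.3 (SD, n = 3 each). The limma log2 fold change was -0.97 ± 0.10 (SE, adjusted p = 2.0e-06), so the count fell by 48.9%, with a 95% interval from -55.8% to -40.9%. The gene passed the test but stayed just within the fold change that a call requires. It was called lower without the first or the third vehicle library or the third corticosterone library, each left out alone (log2 fold changes of -1.01, -1.03 and -1.05), and when libraries were scaled to the same total (-1.01). Of the 10558 genes with a mean of at least 100, 101 had a lower log2 fold change. The lowest of these libraries had 219 reads of *Per3* and the highest 742.

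The 3 period genes are paralogs but share little sequence at read length. Of the 31-base stretches (31-mers) of their transcripts, 0% of those of *Per1* and *Per2* and 0.652% of those of *Per3* also occur in transcripts of another gene, and none of the 8 genes shared a 31-mer with another of the 8.

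The cryptochromes are flavoproteins that act with the period proteins as repressors. *Cry1* (ENSMUSG00000020038, chromosome 10, 85131700 to 85185064, minus strand) had 482, 450.0 and 489 with vehicle and 400.4, 406 and 467 with corticosterone. The third treated library reached into the range of the vehicle libraries. The means were 474 ± 20.8 and 425 ± 36.8 (SD, n = 3 each), and the limma log2 fold change of -0.16 ± 0.08 (SE, adjusted p = 0.21) did not pass. The 95% interval, as a percent change, ran from -20.2% to 0.318%.

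*Cry2* (ENSMUSG00000068742, chromosome 2, 92403646 to 92434043, minus strand) had 396, 336 and 353 with vehicle and 357, 371 and 356 with corticosterone, so the treated libraries lay inside the vehicle range. The means were 361 ± 30.9 and 361 ± 8.68 (SD, n = 3 each). The limma log2 fold change of 0.00 ± 0.08 (SE, adjusted p = 0.99) had a 95% interval of -0.17 to 0.17. The direction of so small a value is not meaningful and turned under several alternative settings. Exons of *Cry2* share 295 bases with *D930015M05Rik* on the opposite strand, and 4.11% of the 31-mers of *Cry2* also lie in another gene. How strand was treated in counting is not stated, and *D930015M05Rik* had a normalized count of at most 8.96.

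*Arntl* (ENSMUSG00000055116, chromosome 7, 113207465 to 113314126, plus strand) encodes the partner that both CLOCK and NPAS2 need. It had 225, 194 and 221 with vehicle, against 253, 326 and 259.7 with corticosterone. All treated libraries were higher, the second clearly more than the others. The mean rose from 214 ± 17.2 to 279.4 ± 40.4 (SD, n = 3 each). In limma this was 0.38 ± 0.11 on the log2 scale (fold change ± SE, adjusted p = 0.023) or 1.30-fold, with a 95% interval of 1.11 to 1.53. The direction was kept without each library in turn (log2 fold changes of 0.27 to 0.45), but the limma adjusted p was between 0.056 and 0.14 without 5 of the 6. These were each of the vehicle libraries (0.056, 0.12 and 0.11 without the first, the second and the third) and the second and the third corticosterone library (0.14 and 0.075). Without the first corticosterone library the limma adjusted p was 0.036.

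*Clock* (ENSMUSG00000029238, chromosome 5, 76209868 to 76304792, minus strand) encodes a transcription factor with histone acetyltransferase activity. It had 1361, 1235 and 1291 with vehicle and 1346, 1416 and 1329 with corticosterone. The groups overlapped, with means of 1295 ± 63.0 and 1364 ± 46.0 (SD, n = 3 each). The limma log2 fold change was 0.07 ± 0.05 (SE, adjusted p = 0.43), and its 95% interval of -0.04 to 0.19 holds no rise of more than 13.9%.

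*Npas2* (ENSMUSG00000026077, chromosome 1, 39193731 to 39363236, plus strand), the paralog of *Clock*, had 3 reads in the first vehicle library, a normalized count of 2.43, and 0 reads in the other 5. Both groups were at or under the floor, so no fold change is given. At this depth *Npas2* RNA was not detectable beyond those reads in the osteoblasts of either group.

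**Figure D2:**
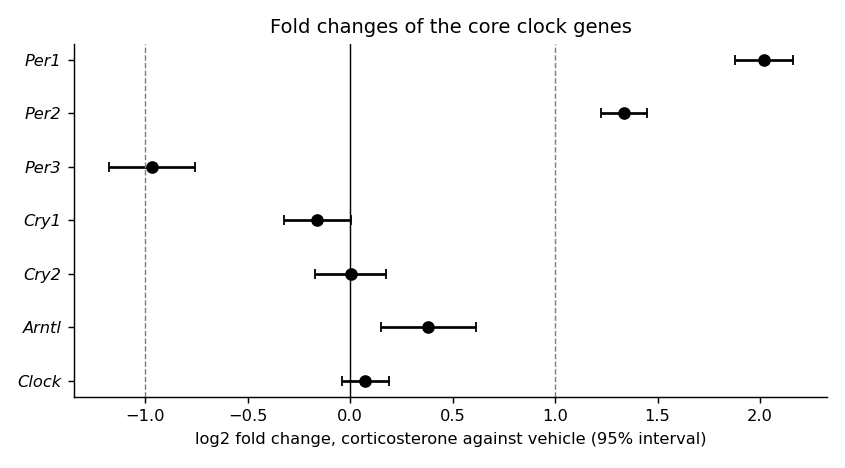
Log2 fold change of corticosterone against vehicle (horizontal axis) for the 7 expressed clock genes, as points with 95% limma intervals; dashed lines mark -1 and 1. *Per1* (2.02) and *Per2* (1.33) lie beyond 1, *Per3* (-0.97) lies beside -1, and the other 4 genes lie between -0.16 and 0.38.

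Levels of different genes were set side by side per kilobase of exon, as the normalized count divided by the length of all annotated exons joined. With vehicle, *Per2* was highest at 148 ± 5.34 (SD, n = 3), followed by *Cry1* at 142 ± 6.24, *Clock* at 94.4 ± 4.59, *Per1* at 86.6 ± 8.66, *Cry2* at 57.2 ± 4.89, *Per3* at 51.9 ± 6.71 and *Arntl* at 28.4 ± 2.29. The libraries of *Per2* and *Cry1* overlapped, as did those of *Clock* and *Per1* and those of *Cry2* and *Per3*. With this length these neighbours do not differ beyond their spread. With corticosterone the order per kilobase was *Per2* at 373 ± 14.8 (SD, n = 3), *Per1* at 350.1 ± 6.96, *Cry1* at 127 ± 11.0, *Clock* at 99.3 ± 3.35, *Cry2* at 57.1 ± 1.37, *Arntl* at 37.1 ± 5.36 and *Per3* at 26.4 ± 2.64. Here no neighbours overlapped with this length. *Per1* had moved from the fourth place to the second and *Per3* had gone below *Arntl*. Which of the top pair is first depends on the length used. With the longest annotated transcript *Cry1* was above *Per2* with vehicle (157 against 149) and *Per1* above *Per2* with corticosterone (422 against 375). The gaps between other neighbours depend on it too. With the longest transcript, *Clock* was at 133 and *Per1* at 104 with vehicle. *Cry1* and *Clock* were then at 140.3 and 139.9 with corticosterone.

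The summed level of the period genes per kilobase was 278, 286 and 295 with vehicle, against 759, 736 and 754 with corticosterone. *Per1* made up 28.5% to 32.5% of that sum with vehicle and 45.4% to 48.2% with corticosterone. The share of *Per3* was 16.1% to 20.8% with vehicle and 3.22% to 3.90% with corticosterone, whereas that of *Per2* stayed between 48.4% and 54.1% in all 6 libraries. With the longest annotated transcript as length the share of *Per3* was 22.1% to 28.1% and 4.61% to 5.59%. The summed cryptochrome level was 188 to 207 with vehicle and 176 to 196 with corticosterone, and that of the activators *Arntl*, *Clock* and *Npas2* was 116 to 129.6 with vehicle and 131 to 146 with corticosterone. The period sum was thus 1.34 to 1.52 times the cryptochrome sum with vehicle and 3.85 to 4.30 times with corticosterone. These sums are descriptions of levels, without a test.

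**Figure D3:**
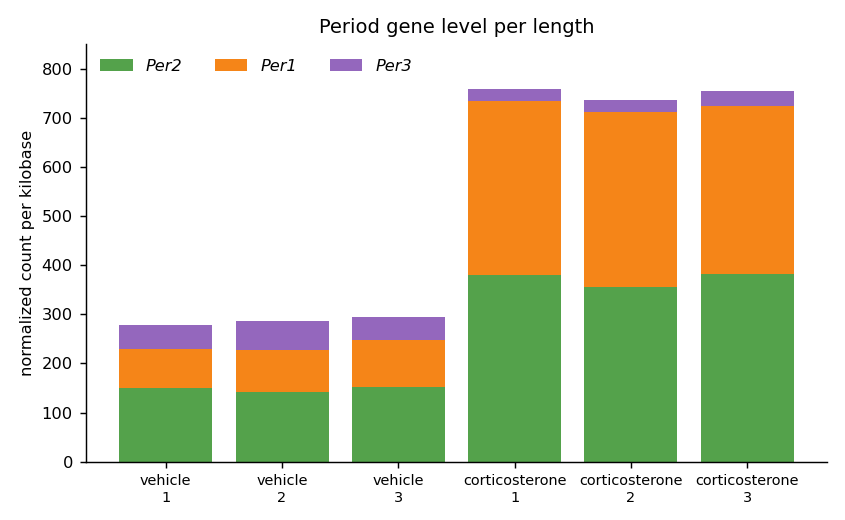
Normalized count per kilobase of exon (vertical axis) of *Per2*, *Per1* and *Per3*, stacked for each of the 3 vehicle and 3 corticosterone libraries. The sum is 278 to 295 with vehicle and 736 to 759 with corticosterone, and the *Per3* part shrinks while the other parts grow.

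Ratios of genes within a library do not depend on a scaling by 1 factor per library, and show whether a pair of genes changed by unequal amounts. The log2 ratio *Per1*/*Per3* was -0.06, -0.26 and 0.24 with vehicle and 3.08, 3.03 and 2.77 with corticosterone. From near equal counts the genes thus came to lie 2.99 apart on the log2 scale relative to vehicle, a 7.93-fold shift. The *Per2*/*Per3* ratio shifted by 2.30, from a mean of 0.80 ± 0.23 to 3.11 ± 0.13 (SD, n = 3 each, log2). *Per1* also rose more than *Per2*, with log2 ratios of -0.98, -0.80 and -0.72 with vehicle and -0.16, -0.06 and -0.22 with corticosterone, a shift of 0.69.

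The ratio of *Per1* to its activator *Arntl* shifted by 1.64 on the log2 scale, and that of *Per2* to *Cry1* by 1.49. *Arntl* shifted against *Clock* by 0.31, with every corticosterone library above every vehicle library. *Cry1* shifted against *Cry2* by -0.16, and here the libraries overlapped (two-sided exact permutation test, p = 0.2, adjusted p = 0.2). The groups were separate in the other 6 pairs of expressed genes, for which the two-sided exact permutation test gave p = 0.1, the smallest that 3 against 3 allow, with an adjusted p of 0.114 over the 8 pairs compared. The eighth pair, *Npas2*/*Clock*, is not read because *Npas2* was at 0 in 5 libraries.

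**Figure D4:**
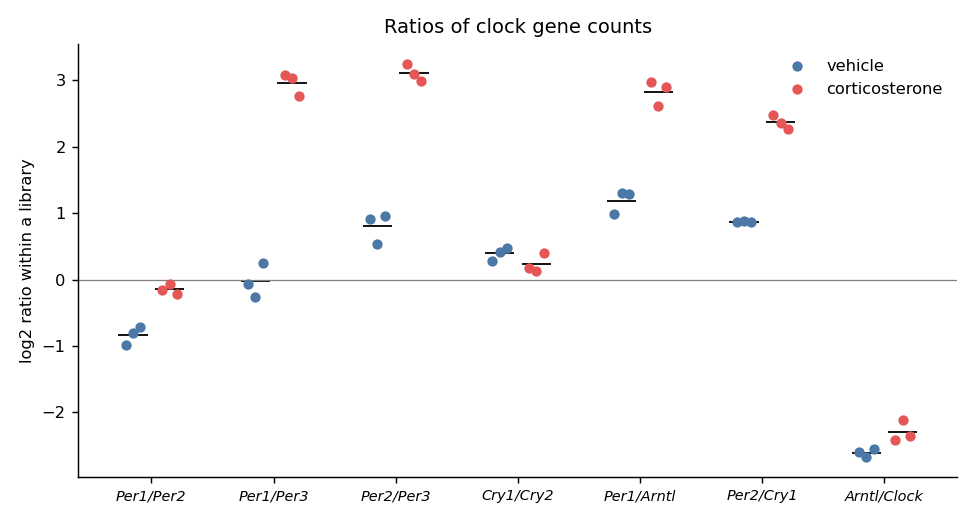
Log2 ratio of the normalized counts of 7 pairs of clock genes within a library (vertical axis), in 3 vehicle and 3 corticosterone libraries (points), with group means as lines. The groups are farthest apart for *Per1*/*Per3* (2.99) and overlap for *Cry1*/*Cry2*.

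A list of 52 other clock genes was examined beside them, of which 50 were in the table. With limma, 8 of the 50 rose, 6 fell and 36 did not pass the test, so 28% passed, against 16.7% of all genes. Of the 45 with a mean of at least 100, 14 passed, which is near the 32.6% of all genes at that level. None was called with limma or DESeq2 over the 50, with edgeR over the 47 that passed its filter, or with limma at an unadjusted p under 0.05 together with the same fold. At an unadjusted p under 0.05 alone, limma gave 10 that were higher and 10 that were lower. Without a variance trend 4 rose and 1 fell, and with quantile normalization 10 fell. The number that fell was 3 without the third vehicle library or without the second or the third corticosterone library, each left out alone. The median log2 fold change was -0.02.

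Among the nuclear receptors of the second loop, *Nr1d1*, which encodes the repressor REV-ERBα, rose from 364 ± 31.01 to 561 ± 52.0 (SD, n = 3 each). In limma this was 0.62 ± 0.09 on the log2 scale (fold change ± SE, adjusted p = 5.0e-05). Its libraries had 328, 377 and 386 with vehicle and 606, 573 and 504 with corticosterone, without overlap. Its paralog *Nr1d2* had a log2 fold change of -0.01, and the activators *Rora* and *Rorb* had -0.37 and -0.52, all with a limma adjusted p of at least 0.12. The libraries of *Rora* did not overlap either, with 106.2, 99.6 and 105.5 with vehicle and 77.1, 93.9 and 71.6 with corticosterone. *Rorb* had only 10.2 ± 2.00 with vehicle.

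Among the genes whose products act on D-boxes, the repressor gene *Nfil3* rose. It had 565, 489 and 567 with vehicle and 904, 899 and 884 with corticosterone, a limma log2 fold change of 0.73 ± 0.07 (SE, adjusted p = 6.0e-07). The activator gene *Tef* fell, from 2009, 2258 and 1974 to 1649.9, 1716 and 1709, a limma log2 fold change of -0.30 ± 0.05 (SE, adjusted p = 0.00087). *Dbp*, another activator of this kind, had 103, 111 and 128 with vehicle and 92.1, 97.2 and 104 with corticosterone, which overlap, and a log2 fold change of -0.22 (limma adjusted p = 0.36). *Bhlhe40*, which encodes the E-box repressor DEC1, fell from 1049 ± 70.2 to 604 ± 44.7 (SD, n = 3 each). In limma this was -0.80 ± 0.07 on the log2 scale (fold change ± SE, adjusted p = 2.7e-07), and *Bhlhe41* had -0.21 (limma adjusted p = 0.29). *Ciart* and *Noct* had -0.04 and 0.13 and did not pass.

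Other listed genes encode enzymes that modify or degrade period and cryptochrome proteins, and coregulators. The casein kinase 1 genes, whose products phosphorylate period proteins, did not pass, with log2 fold changes of 0.11 for *Csnk1d*, -0.12 for *Csnk1e* and 0.02 for *Csnk1a1*. *Prkaa2*, a catalytic subunit of AMPK, which phosphorylates cryptochromes, rose from 159 ± 15.8 to 310.4 ± 10.3 (SD, n = 3 each). Its log2 fold change of 0.96 was the largest of the 50. *Prkaa1*, which encodes the other catalytic subunit and had 886 with vehicle and 949.6 with corticosterone, did not pass (0.10, limma adjusted p = 0.32). Smaller changes that passed were rises of *Usp2* (0.50), *Skp1a* (0.14), *Ep300* (0.50), *Rack1* (0.26) and *Ddb1* (0.19) and falls of *Btrc* (-0.18), *Gsk3b* (-0.19), *Sirt1* (-0.31) and *Sfpq* (-0.24), all as log2 fold changes. The paralogs *Arntl2*, *Timeless* and *Tipin* lay between 0.01 and 0.08 and did not pass.

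**Figure D5:**
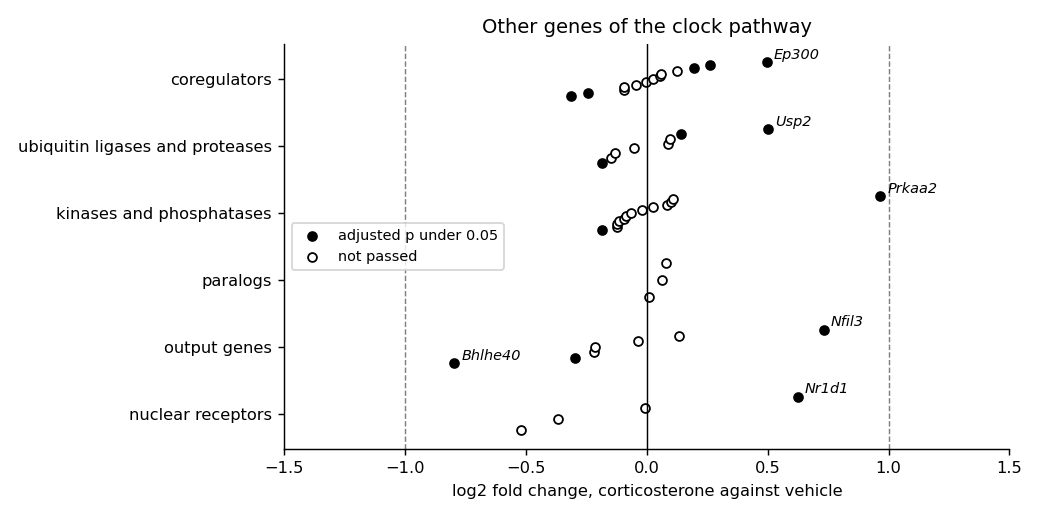
Log2 fold change of corticosterone against vehicle (horizontal axis) of 48 other clock genes with a mean normalized count of at least 10 in either group, by role (vertical axis); filled points passed limma at an adjusted p under 0.05, and dashed lines mark -1 and 1. None lies beyond the dashed lines, and *Prkaa2* (0.96) and *Bhlhe40* (-0.80) lie farthest out.

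The genes whose pattern over the 6 libraries was most like that of the called members were found by the root mean square distance of the log2 values, centred on each gene's mean, among 13476 other genes with a mean of at least 10 in both groups. For *Per1* these were *Emb* at a distance of 0.09, *Igdcc3* at 0.12 and *Vdr* at 0.12, with log2 fold changes of 2.06, 1.90 and 2.00. For *Per2* they were *Gprc5a* at 0.02, *Zhx3* at 0.03 and *Pxk* at 0.04, with log2 fold changes of 1.32, 1.32 and 1.30. Since 2 groups of 3 libraries make up the pattern, likeness mostly reflects a fold change of the same size.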

How the data were processed

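Bulk RNA of 3 vehicle and 3 corticosterone cultures of MC3T3-E1 cells was sequenced on an Illumina platform. The authors deposited 1 table of 24016 genes by library. Its values are named FPKM, but all are whole multiples of 1 step per library whatever the gene's length. The values the authors deposited were therefore treated as a normalized signal, made by dividing read counts by 1 size factor per library (0.782 to 1.30), and whole reads were recovered. The labels name mm10. The aligner, the counting tool, the annotation and the strand setting are not given in the sources used here.

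Identifiers were matched to GENCODE vM21 of GRCm38, which gave symbols for 23983 genes. Groups follow the labels. The main test was limma 3.58.1 (R 4.3.3) with a variance trend on log2(value + 0.1), with a minimum mean of 0.1 that removed no gene, and Benjamini-Hochberg adjustment over all genes. For genes with few reads, a fold change on this scale can depart far from the ratio of the group means. *Pecam1*, for example, had means of 2.43 with vehicle and 2.80 with corticosterone but a log2 fold change of 2.52. Adding 0.1 makes no visible difference at the counts of the expressed members. Ratios were compared with two-sided exact permutation tests, whose smallest p was 0.1. The series describes the cultures as biological replicates, but the labels do not say how they were separated. The p-values therefore set group differences against the variation between these samples only. In limma with a variance trend, that variation is estimated partly from other genes of like level. Tests on the recovered reads with edgeR 4.0.16 and DESeq2 1.42.0 were alternatives, and the scripts were tested on simulated data. In each library 100% of values came out whole, within 0.01 reads up to 100 reads and in proportion above. The members, the lists of other clock genes and of markers and the tests were chosen with earlier results of these data known. Named genes were the members, listed genes (all those called, and those that passed first), the 3 genes nearest in pattern to each called member, and genes that overlap exons of a member.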

Additional observations from a re-analysis of the deposited data

How the results depend on the processing

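Each log2 fold change was recomputed under 21 alternatives. *Per1*, *Per2* and *Per3* kept their direction and passed in all of them, with log2 fold changes of 1.96 to 2.10, 1.29 to 1.37 and -1.05 to -0.86. *Cry1* and *Clock* kept theirs and passed in none. The size of the p-values depended on the fit. Without a variance trend the limma adjusted p was 0.0018 for *Per1*, 0.002 for *Per2* and 0.022 for *Per3*. In a two-sided exact permutation test of its log2 values, each of these 3 genes had p = 0.1, the smallest that 3 against 3 allow. *Arntl* kept its direction but did not pass without a variance trend (0.38, limma adjusted p = 0.21). With single libraries left out it lay between 0.27 and 0.45, and it did not pass in 5 of these 6 fits (limma adjusted p of 0.056 to 0.14). *Cry2* turned negative when scaled to the same total (-0.040), with DESeq2 (-0.0012) and with edgeR using median-of-ratios factors (-0.0012) or no filter (-0.011). It also did so without the second vehicle library (-0.049), the third vehicle library (-0.014) or the second corticosterone library (-0.018), within a range of -0.049 to 0.069 for single libraries left out. The cause was not tested. Members called lower numbered 1 (*Per3*) with scaling to the same total and 0 to 1 with single libraries left out.

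Of the other clock genes, 4 rose and 1 fell without a variance trend, 10 fell with quantile normalization, and 3 to 5 fell with single libraries left out. DESeq2 gave 9 that rose and 4 that fell. Over all genes, 269 were called higher and 245 lower with DESeq2, and 283 and 271 with edgeR. With single libraries left out, 204 to 321 were called lower, with 220.0 without the second and 204 without the third vehicle library. Leaving out a library also lowers the number of samples.

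With the longest annotated transcript as length, levels per kilobase with vehicle and corticosterone were 104 and 422 for *Per1*, 83.1 and 42.4 for *Per3*, 157 and 140.3 for *Cry1*, 90.9 and 90.8 for *Cry2*, 53.4 and 69.9 for *Arntl* and 133 and 139.9 for *Clock*.

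Libraries of equal replicate number shared little variation, with correlations of their deviations from the group means of 0.067, 0.088 and 0.016 over 10558 genes. The labels name no shared batch, and such correlations cannot show whether these cultures were set up together. With the replicate number as a block, limma called 297 genes higher and 294 lower, *Arntl* had 0.38 (limma adjusted p = 0.045), and the same 4 members passed. *Npas2* lay at the limit of depth.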
